A study of Rattus norvegicus with 9 samples.

Results

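Neurotrophic factors are proteins that support the survival, growth and synaptic function of neurons. The genes described here are 8 that belong to 3 such systems and were taken from the deposited count table by their symbols. They are the neurotrophins Bdnf and Ntf3 with their receptors Ntrk2 and Ntrk3, the glial factor Gdnf with its receptor subunits Ret and Gfra1, and the cytokine Cntf. The table has 30507 entries, each of the 8 symbols stands on 1 of them, and 7 of the 8 had enough counts to be tested.

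RNA from the T9 to T11 spinal cord of female, wild-type Sprague-Dawley rats was sequenced at 35 dpi (days post-injury), with 3 rats in each of 3 groups. All rats were 8 weeks old when they were received. The Sham group had no contusion: its labels call it untreated, whereas the study's methods describe a laminectomy. The SCI group received a contusion of the cord at T10 and was given an electrode plug with no electrode behind it. The SCI + SCS group received the same contusion and an epidural electrode at T11 to T12, through which it was stimulated at 10 kHz, 0.12 mA and 30 µs pulses for 2 h per day from 1 dpi (high-frequency spinal cord stimulation, HF-SCS). The study did not sequence RNA from its group with electrodes and no current, so the electrode and the current cannot be told apart. The samples are pieces of whole tissue, in which fewer cells of a type and less RNA per cell cannot be told apart.

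Bdnf (brain-derived neurotrophic factor) binds the receptor tyrosine kinase TrkB, the product of Ntrk2, and Ntf3 (neurotrophin-3) binds TrkC, the product of Ntrk3. Gdnf (glial cell line-derived neurotrophic factor) first binds the membrane-anchored co-receptor encoded by Gfra1, and the complex then engages the receptor tyrosine kinase Ret. Cntf (ciliary neurotrophic factor) acts through a different receptor, made of the CNTF receptor alpha chain, the LIF receptor and gp130, and is known as a product of astrocytes and Schwann cells. In the spinal cord, neurotrophins are known for trophic support of motor and sensory neurons, and BDNF also for a role in dorsal horn plasticity and pain.

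The genes lie on 5 chromosomes of the mRatBN7.2 build, and all are annotated as protein coding. Bdnf is at chr3:96165042-96215615 on the forward strand, and Gdnf at chr2:56895010-56917209, also forward. Ntrk2 (chr17:5559043-5869136), Ret (chr4:151326431-151368176) and Ntf3 (chr4:158914957-158984596) are on the reverse strand. Also on the reverse strand are Ntrk3 (chr1:132132849-132503286), Gfra1 (chr1:257321742-257551473) and Cntf (chr1:209887854-209889877). Ntrk3 overlaps 1 annotated gene on the opposite strand, which had 0 counts in all libraries.

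Bdnf is transcribed from several alternative first exons, so the count for the gene sums transcripts from starts that are far apart. RefSeq (GRCr8 build) places 6 Bdnf starts on the forward strand of chromosome 3, separated by 1202, 1136, 15887, 1944 and 56 bp. The table of RefSeq promoters held 6 of the 8 genes. The 250 bases before a start are shown for the first and the third Bdnf start, for Ret and for Cntf, because Bdnf and Ret were lower in SCI than in Sham and because, of the windows searched, the third Bdnf start and Cntf held a motif match. Capitals mark a match to an AP-1 site, TGANTCA.
Bdnf start 1, chr3:116619383-116619632, forward strand: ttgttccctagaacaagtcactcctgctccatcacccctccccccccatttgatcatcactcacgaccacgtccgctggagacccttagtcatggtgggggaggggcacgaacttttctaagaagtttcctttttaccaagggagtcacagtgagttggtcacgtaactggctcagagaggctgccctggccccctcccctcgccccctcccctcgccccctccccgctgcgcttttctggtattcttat
Bdnf start 3, chr3:116621721-116621970, forward strand: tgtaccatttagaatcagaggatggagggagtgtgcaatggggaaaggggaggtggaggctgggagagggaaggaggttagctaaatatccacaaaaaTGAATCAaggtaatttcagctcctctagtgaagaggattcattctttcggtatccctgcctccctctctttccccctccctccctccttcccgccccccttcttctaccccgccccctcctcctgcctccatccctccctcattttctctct
Ret, chr4:153040557-153040806, reverse strand: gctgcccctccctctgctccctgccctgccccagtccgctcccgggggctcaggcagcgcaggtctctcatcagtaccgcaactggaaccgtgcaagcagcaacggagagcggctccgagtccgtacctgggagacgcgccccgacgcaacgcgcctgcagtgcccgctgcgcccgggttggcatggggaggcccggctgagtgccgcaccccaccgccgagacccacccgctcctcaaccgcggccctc
Cntf, chr1:219314536-219314785, reverse strand: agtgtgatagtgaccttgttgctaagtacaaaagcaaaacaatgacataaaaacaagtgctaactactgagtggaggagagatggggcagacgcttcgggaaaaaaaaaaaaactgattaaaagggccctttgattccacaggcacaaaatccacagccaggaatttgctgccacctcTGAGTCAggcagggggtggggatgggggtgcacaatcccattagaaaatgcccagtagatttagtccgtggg

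Both strands were searched for a CRE (TGACGTCA), an AP-1 site (TGANTCA), an E-box (CACGTG) and a consensus NF-kB site. No motif contains another. Among all 33469 RefSeq promoters of this length, 1.59% held the CRE, 6.34% the AP-1 site, 5.59% the E-box and 0.0956% the NF-kB site. The AP-1 match lay 152 bases before the third Bdnf start and 72 bases before the Cntf start. The other 11 of the 13 windows of these genes, several of which overlap, held none of the 4 motifs, which says only that these letters are not in those windows. The Ret window was rich in G and C (72.8%, with 25 CpG), against medians of 51.2% and 5 CpG over all promoters.

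Library totals ranged from 62844376 to 88358570 counts, so that 3 counts, taken as the lowest level that can be shown, correspond to 0.034 to 0.0477 CPM (counts scaled to a common library size, with TMM normalization). Sham replicate 2 stood apart from the other libraries: the summed level of 7 markers of ganglion sensory neurons was 252.8 CPM there and 8.57 to 22.8 CPM in the other 8 libraries, with up to 2 of the 7 markers at 0 in them. SCI replicates 1 and 3 held 4937 and 1591 CPM of 20 skeletal muscle markers, against 97.7 to 180 CPM in the other 7 libraries. Markers of neurons were present in every library and were lower after injury. Their sum over 10 genes was 5395 to 11810 CPM in Sham, 941 to 2823 CPM in SCI and 2602 to 4262 CPM in SCI + SCS. All 10 were lower in SCI than in Sham by edgeR's quasi-likelihood test (Benjamini-Hochberg adjusted p under 0.05), or 8 of 10 without Sham replicate 2. Where a gene below moves with these markers, their part in its values was not tested.

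The levels of different genes were compared in FPKM, which takes account of gene length. In Sham, the order of mean level was Ntrk2 (45.0 ± 3.97, SD, n = 3), Cntf (33.1 ± 9.92), Ret (12.3 ± 6.85), Gfra1 (4.40 ± 1.25), Ntrk3 (3.85 ± 0.243), Bdnf (0.958 ± 0.365), Ntf3 (0.342 ± 0.173) and Gdnf (0.0264 ± 0.0457). The libraries overlapped between Ntrk2 and Cntf and between Gfra1 and Ntrk3, so these neighbours were not separated. Receptors thus stood above their own ligands in the neurotrophin and GDNF systems: Ntrk2 was 31.5 to 84.2 times Bdnf in the 3 Sham libraries and Ntrk3 was 7.02 to 21.0 times Ntf3. The order was the same in SCI + SCS. In SCI, Ntf3 (0.410 ± 0.202) and Bdnf (0.355 ± 0.0729) overlapped, as did Ret (4.64 ± 0.468) with Gfra1 (3.73 ± 1.14) and Gfra1 with Ntrk3 (2.24 ± 0.875). The ratio of Ret to Gfra1 was 1.79 to 3.42 in Sham, 0.969 to 1.87 in SCI and 1.67 to 2.39 in SCI + SCS, and these ranges overlap.

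**Figure D1:**
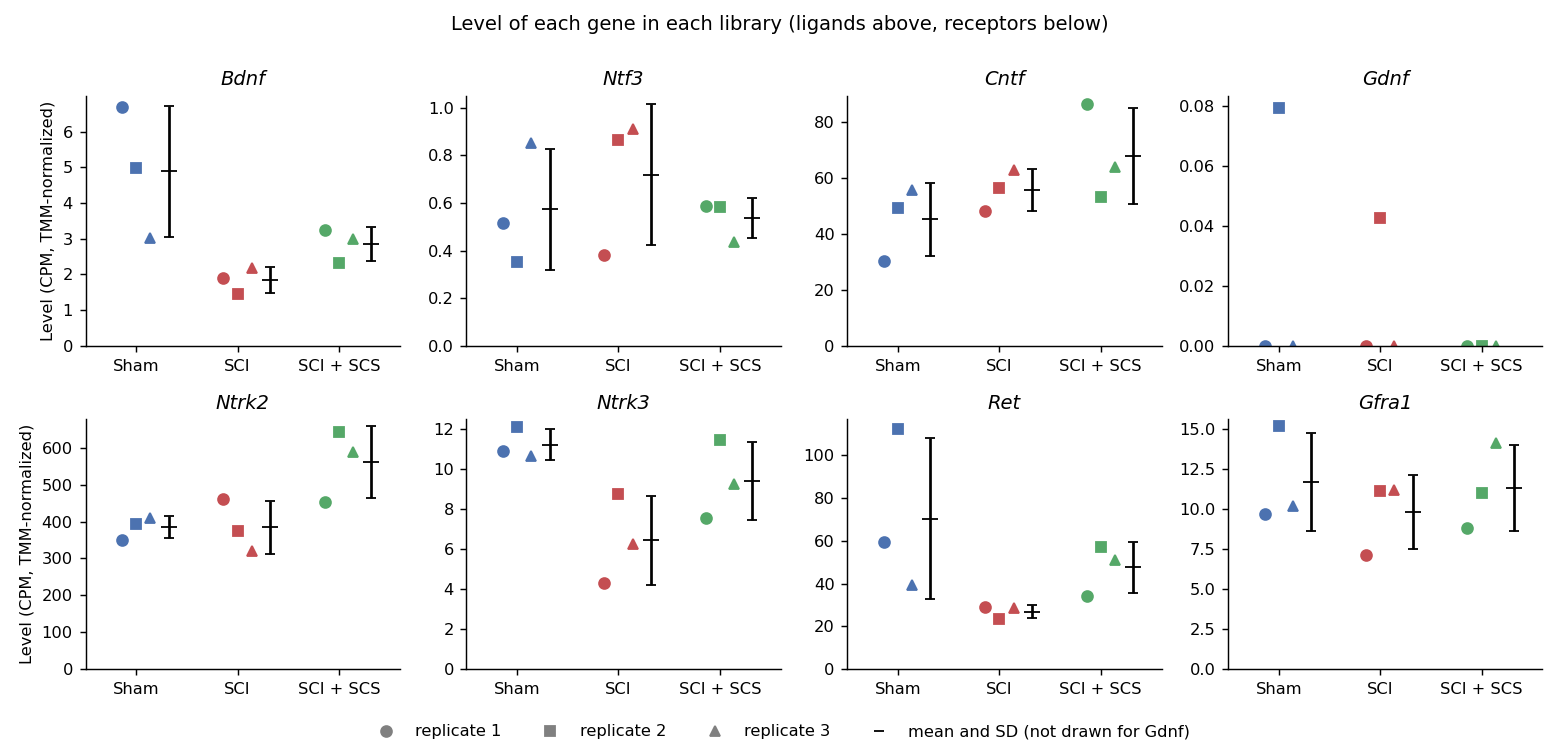
Level of each of the 8 genes in CPM (vertical axes, starting at 0, each on its own scale) in the 9 libraries, by group and replicate number, with the mean and SD of each group beside the points. Bdnf, Ntrk3 and Ret in the SCI libraries sit below all Sham libraries (for Bdnf, 1.45 to 2.19 against 3.01 to 6.69 CPM), and Gdnf, drawn without a mean, has counts in 1 Sham and 1 SCI library.

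The first comparison asks how the genes stood 35 days after contusion. Compared with the Sham group, the SCI group had lower levels of Bdnf, Ret and Ntrk3, and none of the 7 tested genes was higher. The other 4 tested genes (Ntrk2, Ntf3, Gfra1 and Cntf) did not pass the test. The count of 3 lower genes of 7 stands against a background of 49.4% of all 17822 genes tested that passed in either direction and 25% that passed as lower, by edgeR's quasi-likelihood test at an adjusted p under 0.05 (Benjamini-Hochberg). With |log2FC| over 1 required as well, 2 of the 7 (Bdnf and Ret) remained lower, against 26.9% of all genes in either direction. The same 3 genes had libraries that did not overlap between the groups, as 63.6% of all genes tested did. The median log2FC of the 7 genes was -0.27, against 0.02 over all genes tested. The share of members that changed is thus near that of the transcriptome.

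Among the ligands, Bdnf was 6.69, 4.97 and 3.01 CPM in the Sham libraries and 1.90, 1.45 and 2.19 CPM in the SCI libraries. All SCI libraries were below all Sham libraries, although the Sham libraries themselves spread over more than the distance from the lowest of them to the SCI group. The level in SCI was 0.372 times that in Sham (log2FC -1.43 ± 0.34 SE, adjusted p = 0.0147, edgeR quasi-likelihood test, adjusted by Benjamini-Hochberg). Leaving out any 1 library kept Bdnf past the threshold, with log2FC between -1.69 and -1.13 and adjusted p between 0.00603 and 0.0491. Of the 3 lower genes, Bdnf was the 1 that passed in all of these fits.

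Ntf3 was scarce, with 28 to 74 counts per library, and was 0.517, 0.352 and 0.851 CPM in Sham against 0.380, 0.866 and 0.912 CPM in SCI. The groups overlapped, and the difference was smaller than its error (log2FC 0.31 ± 0.49 SE, adjusted p = 0.628, edgeR quasi-likelihood test). Cntf was 30.4, 49.2 and 55.6 CPM in Sham and 47.9, 56.2 and 62.8 CPM in SCI. Its groups overlapped too (log2FC 0.29 ± 0.23 SE, adjusted p = 0.323, same test). Gdnf was not tested: it had 7 counts in Sham replicate 2, 3 counts in SCI replicate 2 and 0 counts in the other 7 libraries, so that Gdnf mRNA was at or near the lowest level that can be shown in all groups and no difference was detectable at this depth. The count of 7 came from the library with the ganglion markers.

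Among the receptors, Ret was 59.2, 112 and 39.3 CPM in the Sham libraries and 28.9, 23.4 and 28.5 CPM in the SCI libraries. The Sham values differed from each other by more than those of any other group, with the highest in Sham replicate 2, while the SCI values lay close together and below all of them. Ret in SCI was 0.377 times its level in Sham (log2FC -1.41 ± 0.37 SE, adjusted p = 0.0202, edgeR quasi-likelihood test). Without Sham replicate 2 it was 0.536 times (log2FC -0.90 ± 0.21 SE, adjusted p = 0.0276). Leaving out SCI replicate 1, 2 or 3 ended the call, with adjusted p of 0.052, 0.0694 and 0.0601 and log2FC between -1.46 and -1.32.

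Ntrk3 was 10.9, 12.1 and 10.7 CPM in Sham and 4.32, 8.75 and 6.22 CPM in SCI. The Sham libraries were tightly grouped and lay above all SCI libraries, which differed among themselves by about as much as the groups did. The level in SCI was 0.567 times that in Sham (log2FC -0.82 ± 0.26 SE, adjusted p = 0.0401, edgeR quasi-likelihood test). This call was near the threshold and was lost without any 1 of the Sham libraries (adjusted p = 0.0741, 0.109 and 0.0648 without replicates 1, 2 and 3) and without SCI replicate 1 (0.0631) or SCI replicate 3 (0.105), the libraries with muscle markers. The log2FC lay between -1.11 and -0.60 in these fits and in the fit without SCI replicate 2.

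Ntrk2, the most abundant of the receptors, was 351, 394 and 410 CPM in Sham and 460, 374 and 319 CPM in SCI. The SCI values lay on both sides of the Sham values, and the fitted difference was close to 0 (log2FC -0.02 ± 0.16 SE, adjusted p = 0.928, edgeR quasi-likelihood test). Gfra1 was 9.68, 15.2 and 10.2 CPM in Sham and 7.15, 11.1 and 11.2 CPM in SCI, with overlap between the groups (log2FC -0.27 ± 0.26 SE, adjusted p = 0.411). As with Ret, the highest Gfra1 value was that of Sham replicate 2, and without this library the log2FC was -0.04 ± 0.25 SE (adjusted p = 0.910). The co-receptor gene thus did not pass the test, whereas Ret passed with all libraries. Whether Ret and Gfra1 differed in their change was not tested.

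**Figure D2:**
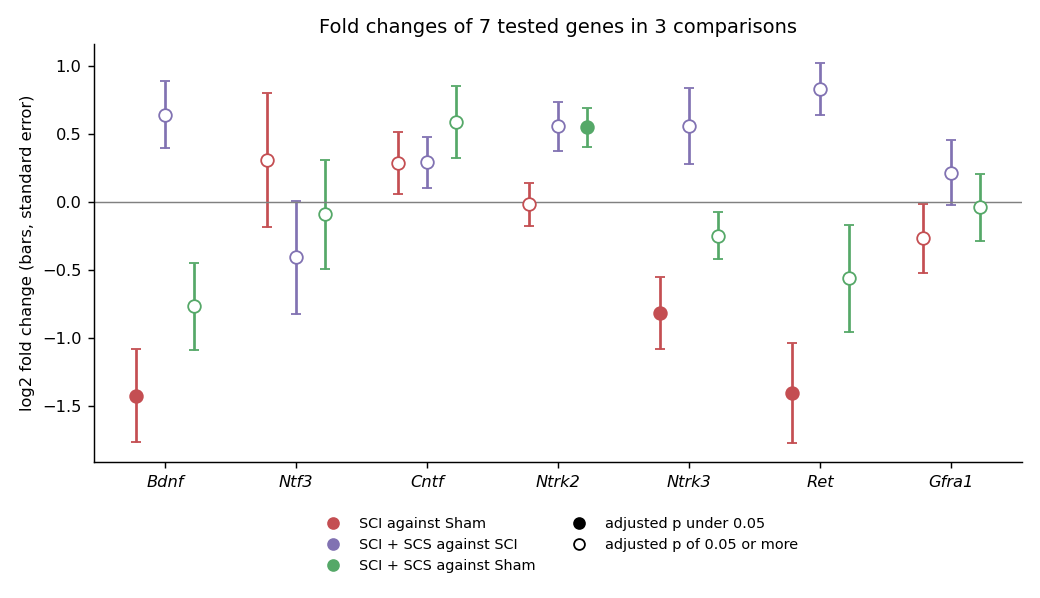
Log2 fold change (vertical axis) of the 7 tested genes in 3 comparisons, with bars of 1 standard error on each side and filled points for an adjusted p under 0.05 in edgeR's quasi-likelihood test. Bdnf (-1.43), Ret (-1.41) and Ntrk3 (-0.82) are filled in SCI against Sham, Ntrk2 (0.55) in SCI + SCS against Sham, and no gene in SCI + SCS against SCI.

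The second comparison asks which genes differed with HF-SCS among injured cords. With stimulation, the fitted level was above that of unstimulated injury for 6 of the 7 tested genes, but 0 passed the threshold of edgeR's quasi-likelihood test. Across the transcriptome this test called 1 of 17663 genes (0.00566%). At an unadjusted p under 0.05, 3 of the 7 genes (Bdnf, Ntrk2 and Ret) lay below the threshold, against 24.2% of all genes tested. DESeq2 called 2 of the 7, Ret and Ntrk2, against 15.7% of the genes it tested. The median log2FC of the 7 genes was 0.56, against -0.01 over all genes tested. On data simulated for this comparison, edgeR recovered 84.5% of 200 genes changed 4-fold, a size that none of the 7 genes approached.

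Ret was 28.9, 23.4 and 28.5 CPM in SCI and 34.4, 56.9 and 51.2 CPM in SCI + SCS. The groups did not overlap, which held for 29.6% of all genes tested, and the lowest stimulated library was the closest to the SCI group. The level in SCI + SCS was 1.78 times that in SCI (log2FC 0.83 ± 0.19 SE, unadjusted p = 0.00353, adjusted p = 0.0885, edgeR quasi-likelihood test). DESeq2 gave an adjusted p of 0.0026 for the same difference. Without SCI + SCS replicate 1, the lowest of its group, the edgeR call passed (log2FC 1.02 ± 0.12 SE, adjusted p = 0.0499), and without any 1 of the other libraries the adjusted p was between 0.0852 and 0.308.

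Ntrk2 was 460, 374 and 319 CPM in SCI and 453, 644 and 588 CPM in SCI + SCS. The groups overlapped through 1 library on each side, since SCI replicate 1 was above SCI + SCS replicate 1. Its level with HF-SCS was 1.47 times that without (log2FC 0.56 ± 0.18 SE, adjusted p = 0.134 in edgeR's quasi-likelihood test and 0.0333 in DESeq2). Bdnf was 1.90, 1.45 and 2.19 CPM in SCI and 3.26, 2.33 and 3.004 CPM in SCI + SCS. Each stimulated library was above each SCI library, by a small distance for the nearest pair, and the fitted ratio was 1.56 (log2FC 0.64 ± 0.24 SE, adjusted p = 0.171 in edgeR's quasi-likelihood test and 0.0988 in DESeq2).

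The other genes differed less relative to their error. Ntrk3 was 7.53, 11.4 and 9.23 CPM in SCI + SCS, overlapping the SCI range of 4.32 to 8.75 CPM (log2FC 0.56 ± 0.28 SE, adjusted p = 0.274, edgeR quasi-likelihood test). Cntf was 86.3, 53.0 and 63.7 CPM (log2FC 0.29 ± 0.19 SE, adjusted p = 0.391) and Gfra1 8.81, 10.99 and 14.1 CPM (log2FC 0.22 ± 0.24 SE, adjusted p = 0.622). Ntf3 was the only gene with a lower fitted level, at 0.589, 0.581 and 0.438 CPM in SCI + SCS (log2FC -0.41 ± 0.41 SE, adjusted p = 0.585). Its stimulated libraries lay within the range of the SCI libraries. Gdnf had 0 counts in all 3 SCI + SCS libraries.

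The third comparison sets the stimulated, injured cords against the uninjured ones, and it shares the Sham libraries with the first and the SCI + SCS libraries with the second. Compared with the Sham group, the SCI + SCS group had a higher level of Ntrk2, and the other 6 tested genes did not pass. Of all 17640 genes tested, 32.4% passed by edgeR's quasi-likelihood test and 16.2% passed as higher. At an unadjusted p under 0.05, 2 of the 7 (Ntrk2 and Bdnf) lay below the threshold, against 46.2% of all genes tested, and with |log2FC| over 1 required beside the adjusted p 0 of the 7 remained, against 11.7%. Ntrk2 was 351 to 410 CPM in Sham and 453 to 644 CPM in SCI + SCS, with no overlap, as for 53.2% of all genes tested. Its level was 1.46 times that in Sham (log2FC 0.55 ± 0.15 SE, adjusted p = 0.0323, edgeR quasi-likelihood test). The call was lost without Sham replicate 1 (adjusted p = 0.0735), Sham replicate 2 (0.0923), SCI + SCS replicate 2 (0.101) or SCI + SCS replicate 3 (0.0928), with log2FC between 0.43 and 0.68 over all fits that left out 1 library.

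Summed markers of astrocytes, cells known to carry TrkB, were highest in 2 of the 3 stimulated libraries, while the other one lay just below SCI replicate 1. The sum of 8 astrocyte markers was 3818, 6461 and 7341 CPM in Sham, 9179, 7213 and 5989 CPM in SCI and 9060, 11630 and 11770 CPM in SCI + SCS. In each group the library with the lowest marker sum was also the one with the lowest Ntrk2 (Sham replicate 1, SCI replicate 3 and SCI + SCS replicate 1). Of the 8 markers, 1 was higher and 2 were lower in SCI + SCS than in Sham by edgeR's quasi-likelihood test, with a median log2FC of -0.04. In SCI + SCS against SCI, 0 of the 8 passed, with a median log2FC of 0.51, beside 0.56 for Ntrk2. The part of astrocytes in the Ntrk2 difference was not tested. The count for Ntrk2, as for the other genes, sums all its transcripts, so forms of the receptor cannot be told apart.

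**Figure D3:**
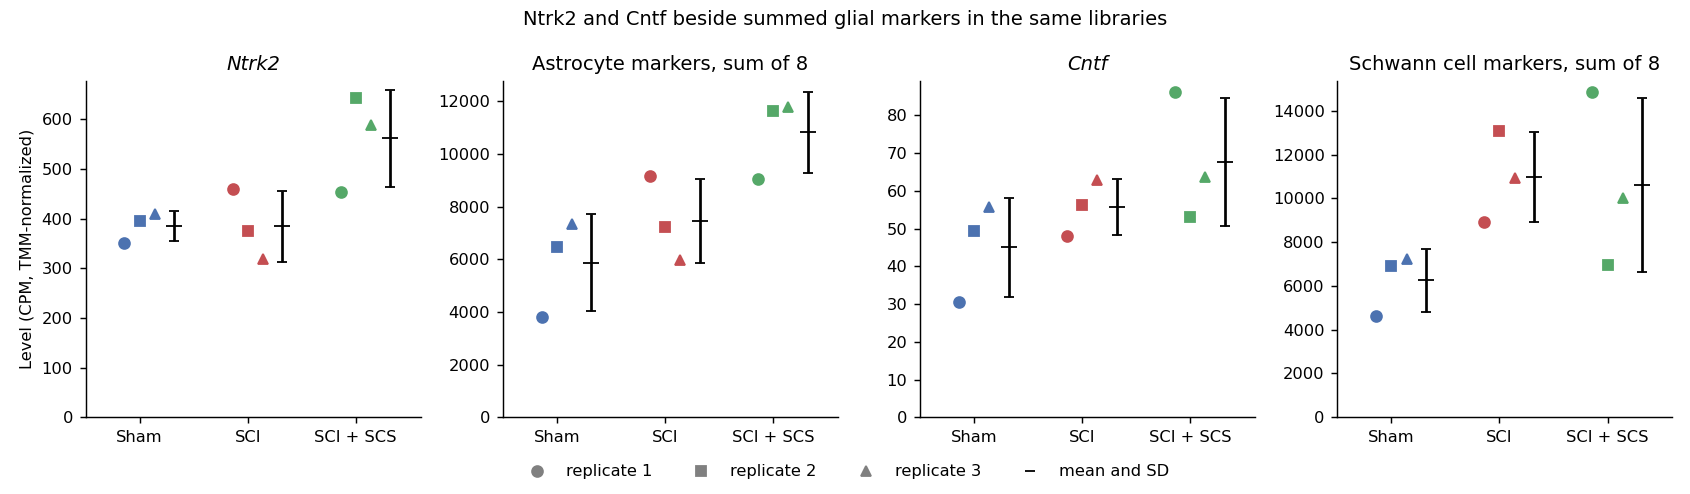
Levels in CPM (vertical axes, starting at 0) of Ntrk2, the sum of 8 astrocyte markers, Cntf and the sum of 8 Schwann cell markers in the 9 libraries, with the mean and SD of each group. Ntrk2 and the astrocyte sum are highest in SCI + SCS replicates 2 and 3, and SCI + SCS replicate 1 has both the highest Cntf (86.3 CPM) and the highest Schwann cell sum (14850 CPM).

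Bdnf in SCI + SCS was 0.586 times its level in Sham and did not pass (log2FC -0.77 ± 0.32 SE, adjusted p = 0.105, edgeR quasi-likelihood test). Its lowest Sham library (3.01 CPM) lay within the stimulated range of 2.33 to 3.26 CPM, and without that library the call passed (log2FC -1.03 ± 0.24 SE, adjusted p = 0.0217). Ret in SCI + SCS was 0.677 times its level in Sham with wide error (log2FC -0.56 ± 0.39 SE, adjusted p = 0.297), and without Sham replicate 2 the log2FC was -0.05 ± 0.28 SE. Thus, most of the fitted Ret difference between these groups came with 1 library. Cntf was 1.505 times as high in SCI + SCS as in Sham and did not pass (log2FC 0.59 ± 0.26 SE, adjusted p = 0.128). The highest Cntf value, in SCI + SCS replicate 1, came with the highest sum of Schwann cell markers (14850 CPM, against 4610 to 13060 CPM in the others). Libraries had the same order for both in Sham and in SCI + SCS. In SCI, replicate 2 had the highest sum (13060 CPM) and replicate 3 the highest Cntf (62.8 CPM). Of the 8 markers, 0 passed edgeR's quasi-likelihood test in SCI + SCS against Sham or against SCI. The part of Schwann cells in the Cntf values was not tested. In SCI + SCS against Sham, Ntrk3, Ntf3 and Gfra1 had log2FC of -0.25, -0.09 and -0.04 and overlapped between the groups.

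Sham replicate 2 held the highest level of several receptors of these families. These included Ret (112 against 59.2 and 39.3 CPM in the other Sham libraries) and Gfra1 (15.2 against 9.68 and 10.2 CPM). A further pair of receptors, picked after their values were seen, did the same. Ngfr, the p75 neurotrophin receptor, was 90.7 CPM against 8.52 and 12.3 CPM, and Gfra3, the artemin co-receptor, was 16.3 CPM against 0.313 and 0.759 CPM. Both were called higher in SCI than in Sham without this library (Ngfr log2FC 2.02 ± 0.28 SE, adjusted p = 0.0115; Gfra3 log2FC 3.40 ± 0.54 SE, adjusted p = 0.0131, edgeR quasi-likelihood test). With all libraries they were not (log2FC 0.18 and -0.02, adjusted p = 0.874 and 0.992).

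**Figure D4:**
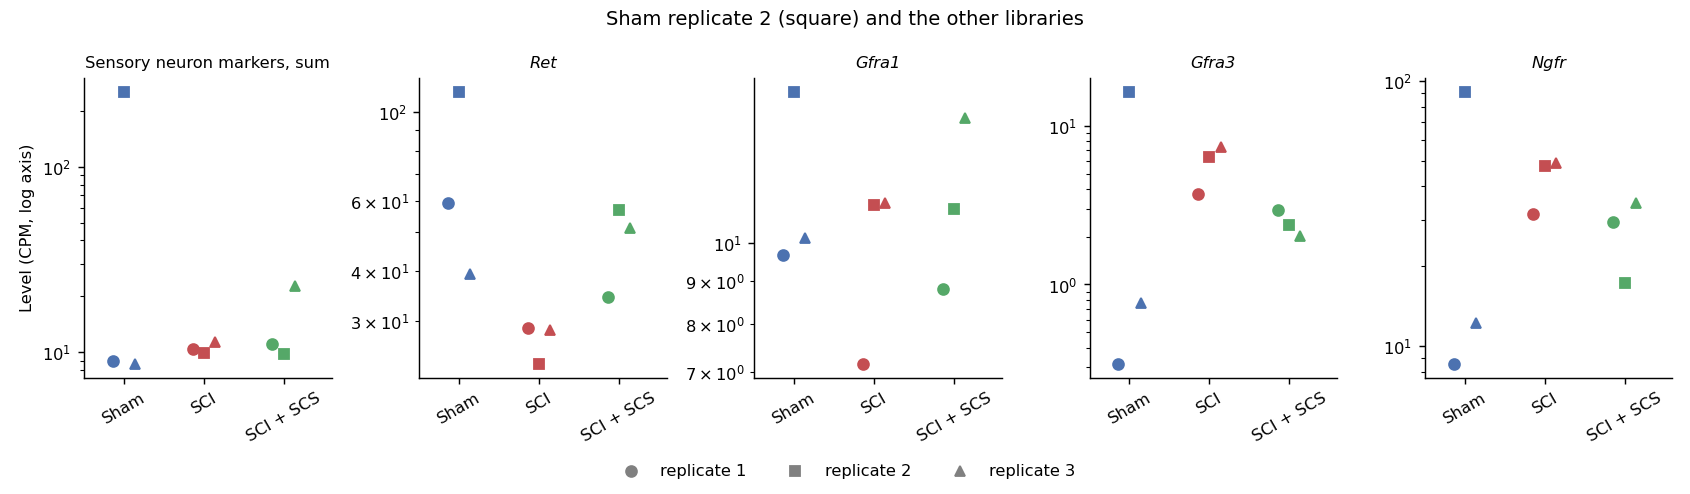
Level in CPM (vertical axes, logarithmic, each on its own scale) of 7 summed sensory neuron markers, Ret, Gfra1, Gfra3 and Ngfr in the 9 libraries, with 1 symbol for each replicate number. The square of the Sham group, replicate 2, is the highest point of every panel (252.8 CPM for the markers), and for Gfra3 and Ngfr the other 2 Sham libraries are the lowest points.

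The wider pathway was described through 62 other genes in 7 lists of ligands, receptors, precursor proteases, adaptors and targets, of which 61 were in the table and 60 were tested. In SCI against Sham, 19 of the 60 were higher and 21 lower by edgeR's quasi-likelihood test (17 and 11 without Sham replicate 2, and 18 and 9 without SCI replicate 3). Most of the lower genes were adaptors (12) or targets (5), and the CNTF and LIF family held the most higher genes (6). The background for these counts is the 49.4% of all genes tested that passed, with 24.3% higher and 25% lower. This background fell as well when a library was left out. Without Sham replicate 2, 2853 of 18054 genes were higher and 3238 lower, and without SCI replicate 3, 3136 of 18312 were higher and 3441 lower.

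Of the 6 other neurotrophin ligands and receptors, 1 was higher and 2 were lower. Sort1, the sortilin receptor that binds precursor neurotrophins, was lower in SCI (0.508-fold, log2FC -0.98 ± 0.13 SE, adjusted p = 0.00215). In SCI + SCS it was also below Sham (0.697-fold, log2FC -0.52 ± 0.11 SE, adjusted p = 0.0163), a call that was lost without Sham replicate 2 (0.705-fold, adjusted p = 0.0634, edgeR quasi-likelihood test).

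Of 7 tested genes in the GDNF family list, 2 were higher in SCI than in Sham and 0 were lower. Nrtn, the gene of the GDNF relative neurturin, was 4.17, 5.62 and 6.02 CPM in Sham, 16.9, 12.6 and 12.4 CPM in SCI and 14.0, 12.3 and 13.3 CPM in SCI + SCS. Both injured groups were above Sham without overlap (2.62-fold in SCI, adjusted p = 0.00306, and 2.51-fold in SCI + SCS, adjusted p = 0.00472, edgeR quasi-likelihood test). Gdf15, a stress-induced cytokine, rose 32.5-fold in SCI (log2FC 5.02 ± 0.50 SE, adjusted p = 0.00138) from 0.141 to 0.250 CPM in Sham to 3.905 to 11.1 CPM. Gfral, a receptor gene of the same list, had 0 to 6 counts per library, at or near the lowest level that can be shown, and was not tested.

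The CNTF and LIF family list had 6 of 9 genes higher and 0 lower in SCI than in Sham, with a median log2FC of 1.31 (5 higher without Sham replicate 2), while Cntf itself did not pass. Clcf1, a ligand of the CNTF receptor, was 0.407, 0.727 and 0.978 CPM in Sham and 4.21, 3.86 and 4.37 CPM in SCI (log2FC 2.53 ± 0.34 SE, adjusted p = 0.00238, edgeR quasi-likelihood test). Osmr, the oncostatin M receptor, rose 4.995-fold (log2FC 2.32 ± 0.33 SE) and its ligand gene Osm 3.22-fold (log2FC 1.69 ± 0.32 SE). Cntfr, the specific receptor chain for CNTF and named here outside the rule for its role, was 35.4 to 48.2 CPM in Sham and 31.9 to 39.1 CPM in SCI (log2FC -0.28 ± 0.15 SE, adjusted p = 0.161). Lifr, the LIF receptor gene and also named outside the rule, was 1.80, 4.90 and 2.01 CPM in Sham. In SCI it was 0.659, 1.73 and 0.651 CPM, with no overlap. DESeq2 called it lower (log2FC -1.54, adjusted p = 0.0179) and edgeR did not. Without Sham replicate 2 its log2FC was -0.93 (adjusted p = 0.213, edgeR quasi-likelihood test). In SCI + SCS against Sham, again 6 of the 9 were higher, where 16.2% of all genes tested were higher. Without Sham replicate 2, 3 of the 9 were higher, against 1179 of all 17927 genes tested.

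Among other secreted factors, Mdk (midkine) and Ptn (pleiotrophin) were higher in SCI than in Sham, 3.16-fold and 2.04-fold, and the third tested gene did not pass. Of 6 proteases that act on neurotrophin precursors, Furin (1.93-fold), Plat (1.76-fold) and Pcsk5 (2.02-fold) were higher, and Pcsk6 (0.356-fold) and Pcsk1 (0.327-fold) were lower. Without Sham replicate 2, 2 were higher and 1 was lower, as the calls of Pcsk5 (1.97-fold, adjusted p = 0.051) and Pcsk1 (0.415-fold, adjusted p = 0.0558) in edgeR's test were lost. Plat encodes tissue plasminogen activator, which starts the cleavage of proBDNF by plasmin, and Pcsk1 a convertase of neuroendocrine cells. Genes of enzymes that process the ligands thus moved in both directions. Of 19 adaptors of Trk and Ret receptors, 3 were higher (Shc1, Sh2b2 and Sh2b1) and 12 lower, among them Kidins220 (0.494-fold, log2FC -1.02 ± 0.09 SE, adjusted p = 0.0012, edgeR quasi-likelihood test), Frs2 (0.642-fold) and Crk (0.366-fold). Kidins220 encodes a scaffold that binds Trk receptors. Without Sham replicate 2, 1 adaptor was higher and 4 were lower, where calls over all genes fell as well, from 8796 to 6091.

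Of 10 genes that Trk or Ret signaling is known to induce, 2 were higher in SCI than in Sham and 5 lower. Spry1 (1.95-fold) and Dusp6 (1.83-fold), both feedback inhibitors of receptor kinase signaling, were higher. Arc, an activity-induced synaptic gene, was 13.2, 11.9 and 6.80 CPM in Sham and 4.67, 3.46 and 2.88 CPM in SCI (0.341-fold, log2FC -1.55 ± 0.32 SE, adjusted p = 0.00806, edgeR quasi-likelihood test). Etv1 (0.609-fold) and Spry2 (0.638-fold) were lower as well. The part of the lower level of neuronal markers in these counts was not tested.

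**Figure D5:**
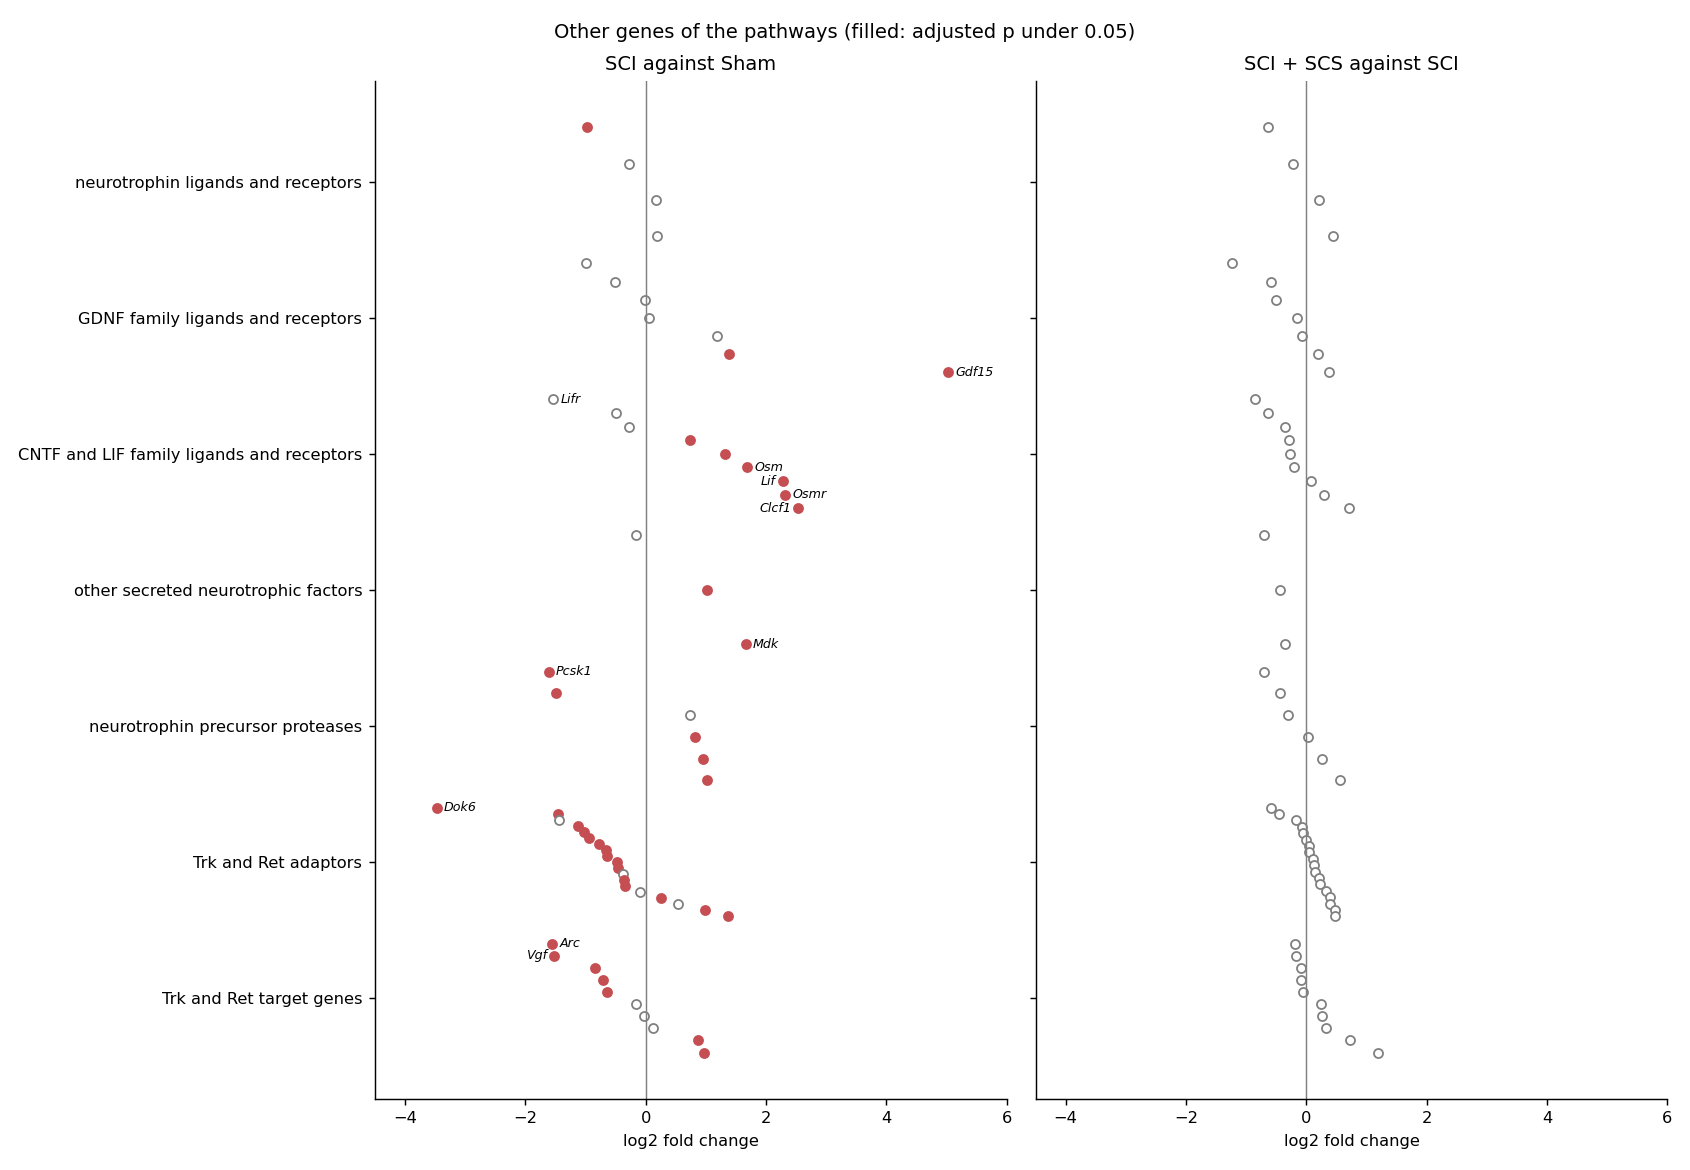
Log2 fold change (horizontal axis) of the tested genes of 7 other lists of the pathways in SCI against Sham (left, 58 genes) and SCI + SCS against SCI (right, 57 genes), 1 point per gene reported, filled for an adjusted p under 0.05 in edgeR's quasi-likelihood test, with names at the largest changes. On the left 18 points are filled above 0 and 20 below, from Gdf15 at 5.02 down to Dok6 at -3.47, whose call was lost without Sham replicate 2 (adjusted p = 0.126), and on the right 0 are filled.

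In SCI + SCS against SCI, 0 of 59 tested pathway genes passed edgeR's quasi-likelihood test, 16 had an unadjusted p under 0.05, and DESeq2 called 5 higher and 4 lower of 58. Over all genes, 24.2% had such a p and DESeq2 called 15.7%, so the shares among the pathway genes are near the background. Vgf, a neuropeptide precursor gene induced by BDNF and picked after its values were seen, was 36.0, 31.4 and 25.4 CPM in SCI and 66.2, 78.1 and 67.5 CPM in SCI + SCS. These groups lay far apart relative to their spread (2.30-fold, log2FC 1.20 ± 0.14 SE), yet the adjusted p was 0.0719 in edgeR and 4.91e-10 in DESeq2. In Sham, Vgf was 134, 78.1 and 50.5 CPM. Compared with Sham, the SCI + SCS group had 16 higher and 10 lower pathway genes of 60, against 16.2% of all genes tested in each direction. The counts were 9 and 6 without Sham replicate 2, and 7 and 6, 10 and 6, and 10 and 5 without SCI + SCS replicates 1, 2 and 3. Calls over all genes fell too, from 5710 to 2149 without Sham replicate 2. They were 2152, 2825 and 3373 without SCI + SCS replicates 1, 2 and 3. Among the genes called were Clcf1 (4.79-fold), Gdf15 (21.7-fold) and Mdk (2.49-fold) higher and Kidins220 (0.651-fold), Pcsk6 (0.527-fold) and Etv1 (0.588-fold) lower.

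The genes whose profile over the 9 libraries was most like that of each member were taken by Pearson's r of log2 CPM among 14993 genes with a mean of at least 1 CPM. These values are descriptions, since the libraries share groups and the points are not independent. The nearest to Bdnf were Cd164l2 (r = 0.978), Crebl2 (0.973) and Etnppl (0.969), and Cd164l2 was 2.16 to 6.19 CPM in Sham, 0.849 to 1.13 CPM in SCI and 1.59 to 2.16 CPM in SCI + SCS. For Ntrk2 they were Mlc1 (0.939), Rapgef3 (0.936) and Golm2 (0.931). For Ntrk3 they were Kmt2a (0.986), Tbl1xr1 (0.981) and Peli1 (0.976). The last pair of symbols each stand on 2 entries of the table, and the ones meant are on chromosomes X (3.49 to 10.8 CPM for Tbl1xr1) and 14 (5.29 to 14.4 CPM for Peli1). Ret was most like Bcap29 (0.968), Syt9 (0.954) and Rtn4rl1 (0.954), and both Ret and Syt9 (9.93 CPM) had their highest value in Sham replicate 2. Gfra1 was most like Trpa1 (0.923), Fgd4 (0.894) and Scn11a (0.891). Trpa1 and Scn11a, which encode ion channels of sensory neurons, were 10.8 and 46.4 CPM in that library and at most 1.09 and 2.68 CPM in the others. Cntf was most like Pla2g5 (0.952), Il1r1 (0.948) and Mmp15 (0.941), with the highest Pla2g5 and Il1r1 values (9.90 and 16.4 CPM) in SCI + SCS replicate 1. Ntf3 was most like Homer2 (0.951), Crcp (0.931) and Mindy1 (0.930), at a level where a few counts set the profile. For Gdnf, with counts in 2 libraries, no profile can be read.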

How the data were processed

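The members and gene lists were chosen with earlier results of these data known. The authors deposited raw counts per gene and library, with positions, and a table of FPKM. Per the labels, poly(A) RNA from 1 batch was sequenced on DNA nanoballs, with no stranded kit named, and the submitters' processing notes name fastp 0.23.2, HISAT2 2.2.1 and mRatBN7.2. The counting program is not given in the sources used here. The deposited FPKM imply a gene length that varies between libraries (4861 to 5382 bases for Bdnf), so FPKM were used only to order genes, for ratios of level between genes and in alternatives; these ratios carry that variation.

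Counts were tested with edgeR 4.0.16 (R 4.3.3; TMM, default filter on low counts, quasi-likelihood test) over the 6 libraries of each comparison, without covariates, at a Benjamini-Hochberg adjusted p under 0.05 over all genes tested. Errors are the size of the log2FC divided by the square root of F. The study's methods name DESeq2, an alternative here (1.42.0). limma 3.58.1 tested log2(FPKM + 1) and log2(FPKM + 0.1), a scale that understates changes of low genes. CPM were normalized by TMM over 9 libraries. Replicates are separate rats, so each p-value sets a group difference against the spread between rats in groups of 3. That spread is estimated with information shared across genes. With 3 against 3, an exact permutation test cannot go below 0.1. The floor of 3 counts covers counting error only.

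Named were all members, in each list the 3 genes with the smallest p in each direction among those that passed, and the 3 genes most like each member; 2 genes of the pathway lists are counted but not reported here. Same-numbered samples were checked for pairing. In the self-test for SCI against Sham (17822 genes), edgeR recovered 74% of 200 genes changed 4-fold.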

Additional observations from a re-analysis of the deposited data

How the results depend on the processing

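With edgeR's quasi-likelihood test, the 3 members called in SCI against Sham were 1 with log2(FPKM + 1) in limma and no filter on low values, and 1 to 2 when a library was left out. The 0 called in SCI + SCS against SCI became 3 at an unadjusted p under 0.05, 2 with DESeq2 (Ret and Ntrk2) and 0 to 1 when a library was left out. The 1 called in SCI + SCS against Sham became 0 when |log2FC| over 1 was also required, 2 at an unadjusted p, and 0 to 2 when a library was left out. For the other pathway genes, alternatives added after the values were seen gave, in SCI + SCS against SCI, 9 with DESeq2, 1 with either FPKM pseudocount in limma and 0 to 1 when a library was left out, against 0. Leaving out a library gave 13 to 32 in SCI + SCS against Sham, against 26, and 27 to 37 in SCI against Sham, against 40. Over all genes, SCI + SCS against SCI gave 1 call in edgeR and 2595 in DESeq2, 31 and 19 with pseudocounts of 1 and 0.1 in limma, and up to 169 without SCI + SCS replicate 1. SCI + SCS against Sham gave 5710 in edgeR, 2149 without Sham replicate 2 and 2152 without SCI + SCS replicate 1. SCI against Sham gave 8796 in edgeR and 6091 without Sham replicate 2. Signs that changed when a library was left out were those of Ntrk2 in SCI against Sham (log2FC -0.17 to 0.093), Ntf3 in SCI + SCS against Sham (-0.35 to 0.31) and Gfra1 in the same comparison (-0.23 to 0.19), none of them called. Bdnf in SCI against Sham passed under all 17 alternatives for its value, with log2FC from -1.69 to -0.51, the smallest being on an FPKM scale. The cause of these changes was not tested.

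Samples with the same replicate number did not deviate together: the correlations of their deviations were 0.146, -0.0927 and 0.115 for numbers 1 to 3 in SCI against Sham, -0.0763, -0.0386 and -0.107 in SCI + SCS against SCI, and -0.22, 0.00647 and -0.207 in SCI + SCS against Sham. Pairing by number was thus not seen, but deviations from means of 3 libraries cannot exclude it. With the replicate number as a block, 0 members in place of 1 were called in SCI + SCS against Sham (Ntrk2 log2FC 0.53, adjusted p = 0.0656), where calls over all genes went from 5710 to 1259 and those among the other pathway genes from 26 to 8. The block moved no other call of a member.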

Other observations

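In the SCI group, Gfra3 was 3.71, 6.40 and 7.35 CPM, and in the SCI + SCS group it was 2.93, 2.35 and 2.03 CPM, with no overlap (log2FC -1.24 ± 0.29 SE, adjusted p = 0.0892 in edgeR's quasi-likelihood test and 0.00161 in DESeq2). Ptn was 0.736 times as high in SCI + SCS as in SCI (adjusted p = 0.107 in edgeR and 0.00863 in DESeq2), and Pcsk6 had a DESeq2 log2FC of 0.55 (adjusted p = 0.000219). These genes were picked after their values were seen, and the difference between the tools was not tested. On simulated data for the same comparison, 7 of 176 genes called by edgeR and 50 of 230 called by DESeq2 had not been changed. These counts were drawn with the spread that edgeR estimated, and 200 of 17663 genes were changed, all 4-fold. The share of false calls depends on this setting, which differs from the real comparison, so it cannot tell whether the calls named above are false.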
